A study of Mus musculus with 32 samples.

Results

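The genes described here are those of a pair of vasoactive peptide systems: adrenomedullin and calcitonin gene-related peptide (CGRP) with their shared receptor, and endothelin with its receptors and activating enzyme. The list held 10 genes, taken by symbol from the 54429 rows of the count table: the ligand genes Adm, Calcb and Edn1, the receptor genes Calcrl, Ednra and Ednrb, the receptor partners Ramp1, Ramp2 and Ramp3, and the protease gene Ece1. The list was drawn up with results of these data known. The fall of Calcb with si-dnmt under TNF + IFN and the fall of Ramp3 with si-dnmt under IFN had been selected on their fold change, and both are therefore given as values with no test. All libraries came from the Veravec line of mouse lung endothelial cells (ECs), transfected repeatedly with a non-targeting control (si-control) or with siRNA that targets Dnmt1 (si-dnmt). DNMT1 is the enzyme that keeps CpG methylation in place when DNA is copied. The cells then received no cytokine, TNF (TNFα, 10 ng/mL), IFN (IFNγ, 1000 U/mL) or TNF + IFN for 16 h, and the doses are those given for the single cytokines. This gave 8 groups with 4 libraries each, which the labels call biological replicates, so that 1 cell line and no animal stood behind the replicates.

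The peptide encoded by Adm relaxes vessels and tightens the endothelial barrier, and CGRP, of which Calcb encodes the beta form, is a strong vasodilator best known from sensory nerves. Both act on the receptor encoded by Calcrl, which reaches the cell surface with a receptor activity-modifying protein (RAMP): with RAMP1 it binds CGRP, and with RAMP2 or RAMP3 it binds adrenomedullin. Edn1 encodes endothelin-1, a vasoconstrictor that ECs secrete after the protease ECE1 has cut its precursor. The endothelin receptor of smooth muscle is mainly that of Ednra, whereas ECs carry that of Ednrb, which clears the peptide and signals for vessel relaxation.

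RefSeq promoter windows (build GRCm38.p6, 250 bases before to 50 after a start) were at hand for 8 of the 10 genes, with 4 windows for Ece1 and 11 windows in all. The upstream 250 bases are shown for 4 genes that carry siRNA or cytokine results given below, because the study reduced a DNA methyltransferase and capitals mark the CpG sites. The Adm window lies at chr7:110627407-110627656 (plus strand), that of Edn1 at chr13:42301226-42301475 (plus strand), that of Ednrb at chr14:103843702-103843951 (minus strand) and that of Ramp3 at chr11:6658283-6658532 (plus strand).
Adm: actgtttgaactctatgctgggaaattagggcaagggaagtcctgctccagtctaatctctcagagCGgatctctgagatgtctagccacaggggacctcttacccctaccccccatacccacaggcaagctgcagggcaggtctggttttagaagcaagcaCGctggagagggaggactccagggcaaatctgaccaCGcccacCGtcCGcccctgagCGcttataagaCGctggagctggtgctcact
Edn1: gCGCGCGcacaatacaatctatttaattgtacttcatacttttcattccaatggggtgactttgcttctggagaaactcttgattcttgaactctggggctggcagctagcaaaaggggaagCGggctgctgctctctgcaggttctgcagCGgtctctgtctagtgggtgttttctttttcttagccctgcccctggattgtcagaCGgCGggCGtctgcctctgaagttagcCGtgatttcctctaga
Ednrb: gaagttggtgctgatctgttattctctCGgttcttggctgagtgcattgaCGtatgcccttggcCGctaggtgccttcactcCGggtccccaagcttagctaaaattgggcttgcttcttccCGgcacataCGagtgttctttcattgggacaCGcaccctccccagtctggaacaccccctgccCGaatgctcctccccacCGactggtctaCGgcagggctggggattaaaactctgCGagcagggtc
Ramp3: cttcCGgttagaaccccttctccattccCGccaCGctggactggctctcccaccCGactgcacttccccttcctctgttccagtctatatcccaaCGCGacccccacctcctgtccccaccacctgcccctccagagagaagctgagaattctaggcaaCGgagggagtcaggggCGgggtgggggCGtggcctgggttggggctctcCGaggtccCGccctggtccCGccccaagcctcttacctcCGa
The stretches printed held 7 CpG sites in Adm, 9 in Edn1, 11 in Ednrb and 13 in Ramp3. Over the full windows the counts were 9, 11, 15 and 15, against a median of 7 and an interquartile range of 3 to 20 over all 32851 windows in the table. The windows were searched on both strands for the NF-kB consensus, the interferon-stimulated response element (TTTC repeated after any 2 bases), the GAS element TTCNNNGAA, the hypoxia element ACGTG and the AP-1 element TGANTCA. Ramp3 held 1 NF-kB match (GGGGCTCTCC, first base 51 before the start), a motif found in 4.51% of all windows. Edn1 held 1 interferon element match (TTTCTTTTTC, first base 78 before the start, 3.44% of all windows) and 1 ACGTG match on the other strand after the start (19.6% of all windows). Of the 4 Ece1 windows, 1 held overlapping ACGTG matches on both strands and 1 held an interferon element match on the other strand. The windows of Adm, Calcrl, Ednra, Ednrb and Ramp1 held no match to these letters. The TTCNNNGAA and TGANTCA elements, present in 8.30% and 7.81% of all windows, were found in no window of the list. A match is a string of letters, and methylation was not measured in these libraries.

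Total counts ranged from 17362546 to 33500030 per library, with a median of 20859668, and 15254 genes passed the filter on low counts. Levels below are CPM, which are read counts relative to library size, scaled by edgeR's TMM factors, and where 4 values follow each other they are replicates 1 to 4. A gene was called where edgeR's quasi-likelihood test across all 15254 genes gave an adjusted p under 0.05, and log2 fold changes carry their SE from that fit. Dnmt1, the siRNA target, lay between 86.5 and 211 CPM in the 16 si-control libraries and between 5.11 and 17.3 CPM in the 16 si-dnmt libraries, with folds of 13.5 (no cytokine), 14.6 (TNF), 15.5 (IFN) and 16.9 (TNF + IFN). Within every group, replicates 1 and 2 stood apart from replicates 3 and 4 across the transcriptome, and the labels do not say what separates them. Adm and Calcrl were higher in replicates 1 and 2 than in replicates 3 and 4 in 8 of 8 groups each, with ratios of the 2 means from 1.31 to 2.44 and from 1.33 to 2.73, so values within the replicate sets are given beside many results, and those of a fit with the replicate number as a block where it changed a call. A fit of 1 set has 2 libraries a group and measures only the spread inside that set. All 10 endothelial markers examined (Pecam1, Cdh5 and others) were measured, with summed levels of 2534 to 8093 CPM. Their sum was 5207 to 8093 CPM in si-control and 3142 to 4044 CPM in si-control + TNF + IFN, where 9 of 10 were called lower (21.6% of all genes). In si-dnmt 10 of 10 were called lower by TNF + IFN (18.9% of all genes). Against the siRNA, 1 or fewer of the 10 was called in either direction in each state, where 8.72% to 10.8% of all genes were called in each direction. The summed smooth muscle and pericyte markers were 8.48 to 71.0 CPM in the si-control groups and 40.8 to 233 CPM in the si-dnmt groups. Of the 10 genes of that list 6 reached 10 counts in some library, and the sum was mostly Acta2 (means of 15.0 and 107 CPM with no cytokine in si-control and si-dnmt). Myh11, Cnn1 and Des had group means of at most 0.956, 0.291 and 0.0352 CPM. The 5 genes of that list that passed the filter on low counts had median log2 differences in si-dnmt of 1.03, 1.65, 1.62 and 1.09 for none, TNF, IFN and TNF + IFN. Of these 5, 2, 1, 1 and 0 were called higher (9.58%, 10.4%, 10.8% and 8.97% of all genes) and 0 lower. The neuron list moved with IFN, from sums of 1.88 to 10.3 CPM in the 16 libraries without it to 78.0 to 187 CPM in the 16 with it, through Tubb3, while Snap25, Rbfox3 and Scn10a had group means of at most 0.0129, 0.0117 and 0.0132 CPM. The part of these marker shifts in the results below was not tested.

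Of the 10 genes, 8 passed the filter on low counts, and Ramp1 and Ednra did not. Calcb reached the level that the filter asks for in 4 or more libraries in 12 of the 16 si-control libraries and 4 of the 16 si-dnmt libraries, none of the latter without TNF. Leaving aside the values that chose Calcb and Ramp3, 3 of the 8 were called between the siRNAs with no cytokine (Calcb, Ramp2 and Ramp3, all lower in si-dnmt), against 18.5% of all genes tested. Under TNF the calls were Calcb and Calcrl, both lower (20% of all genes). Under IFN they were Calcb and Ramp2 lower and Edn1 higher (20.3% of all genes), and under TNF + IFN they were Adm lower and Ednrb higher (17.7% of all genes). Since the genes were chosen on such values, nothing is read from these counts. The median log2 fold change over the 8 genes was -0.48, -0.10, -0.18 and -0.31 in the 4 states, while that of all genes tested was between -0.01 and 0.01. The last 2 medians each include a value that chose a gene, so nothing is read from the medians either. With the replicate number as a block the calls were 6, 4, 6 and 4 of 8, of which the last 2 counts each include a value that chose a gene, against 32.4%, 33.4%, 34.5% and 30.8% of all genes.

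**Figure D1:**
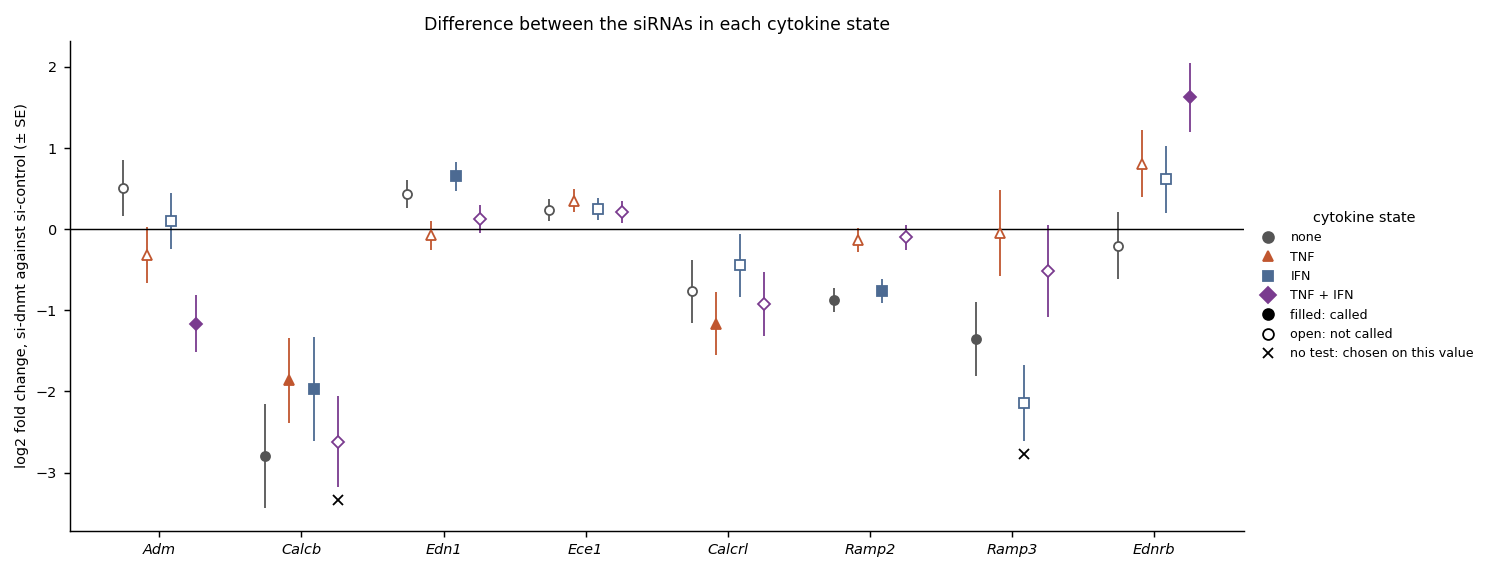
Log2 fold change of si-dnmt against si-control (vertical axis, ± SE, 4 libraries a group) for the 8 genes that passed the filter, with 1 symbol per cytokine state. Calcb lies below 0 in all 4 states, Ednrb rises to 1.62 under TNF + IFN and Adm falls to -1.16 there, while crosses mark the Calcb and Ramp3 values that chose the genes and carry no test.

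Against no cytokine in si-control, TNF called 4 of the 8 genes (Ramp2, Ramp3, Ednrb and Ece1, all lower) with 30.8% of all genes called, and IFN called Edn1 and Ednrb, both lower (14.5% of all genes). TNF + IFN called 7 of 8 in si-control, namely Adm and Calcb higher and Calcrl, Ramp2, Ramp3, Edn1 and Ednrb lower (45.2% of all genes). In si-dnmt, TNF called Calcb higher and Ramp2, Ramp3 and Edn1 lower (21% of all genes), and IFN called Edn1 lower (9.01% of all genes). TNF + IFN in si-dnmt called Calcrl, Ramp2, Ramp3, Edn1 and Ednrb lower (40.2% of all genes). The 3 responses under 1 siRNA share their untreated libraries, and the siRNA contrasts share libraries with the responses. The TNF + IFN libraries of both siRNAs also entered the value that chose Calcb, so its tests there are not independent of the choice. The same holds for the tests of Ramp3 with IFN, whose libraries entered the value that chose Ramp3. With the replicate block the calls rose to 7 of 8 for TNF in si-control (43.4% of all genes), and in si-dnmt to 6 of 8 for TNF (34.3%), 2 of 8 for IFN (19%) and 6 of 8 for TNF + IFN (51.7%).

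**Figure D2:**
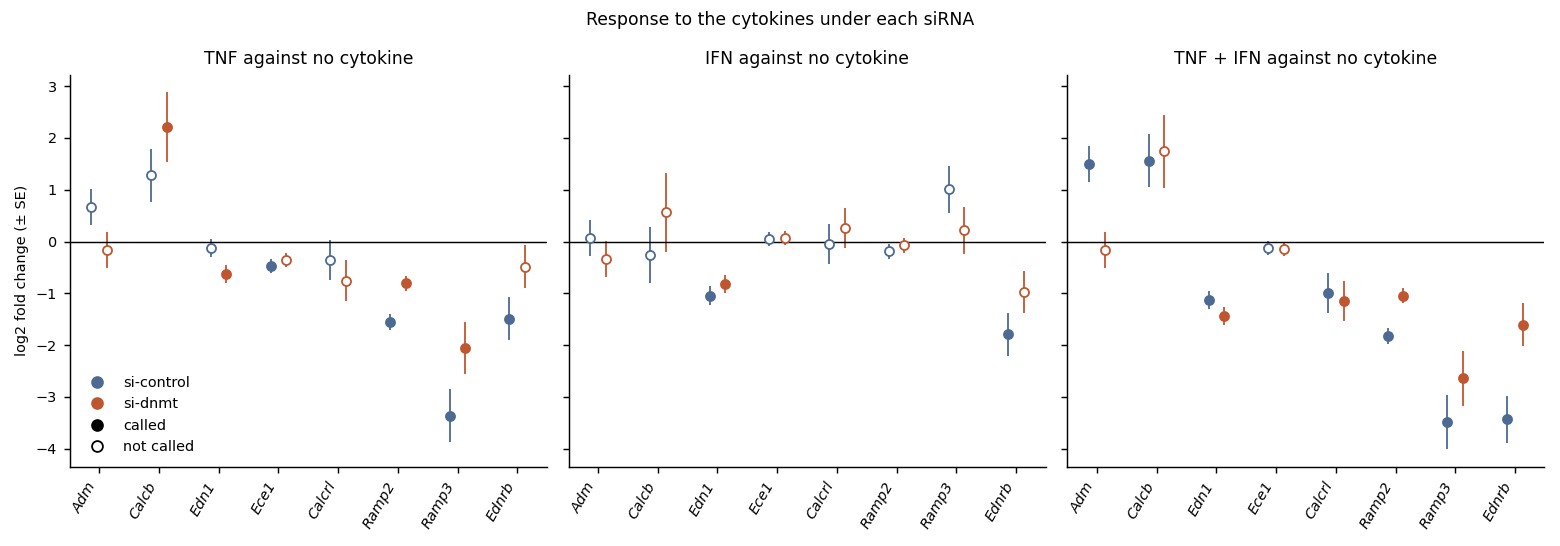
Log2 fold change against no cytokine (vertical axis, ± SE, 4 libraries a group) in si-control and si-dnmt for TNF, IFN and TNF + IFN, with filled points for called values. Under TNF + IFN Adm stands at 1.501 in si-control and -0.17 in si-dnmt, whereas Calcrl stands at -0.99 and -1.15.

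Adm, the adrenomedullin gene, rose with TNF + IFN in si-control and lay lower in si-dnmt in the same state. With no cytokine its level in si-control was 73.6, 73.3, 30.9 and 29.4 CPM. With TNF + IFN it was 187, 187, 108 and 105 CPM. All 4 treated libraries were thus above all 4 untreated ones, although each group split into a higher pair and a lower pair by replicate number. The difference was 1.501 ± 0.35 on the log2 scale (2.83-fold, adjusted p = 0.000883), 1.36 within replicates 1 and 2 and 1.82 within replicates 3 and 4. In si-dnmt the level was 95.4, 93.0, 49.6 and 55.7 CPM with no cytokine and 75.9, 101, 43.5 and 40.8 CPM with TNF + IFN. These groups overlapped, and the difference was -0.17 ± 0.34 (adjusted p = 0.739). Between the siRNAs under TNF + IFN, every si-dnmt library lay below every si-control library, with a log2 difference of -1.16 ± 0.35 (2.24-fold, adjusted p = 0.0194). This call was lost when any of replicates 1 and 2 of si-control + TNF + IFN or replicates 3 and 4 of si-dnmt + TNF + IFN was left out (log2 fold change -1.03 to -0.99), and the fall was -1.08 within replicates 1 and 2 and -1.33 within replicates 3 and 4.

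In the other states the difference of Adm between the siRNAs was not called. It was 0.50 ± 0.35 with no cytokine (adjusted p = 0.344), -0.31 ± 0.34 under TNF (adjusted p = 0.576) and 0.10 ± 0.35 under IFN (adjusted p = 0.88). With the replicate block, which compares libraries of the same number, the first became 0.56 (adjusted p = 0.000509) and the second -0.34 (adjusted p = 0.0244). Fitted alone, the replicate sets gave 0.37 and 0.80 with no cytokine (edgeR adjusted p = 0.0353 and 1e-06) and -0.25 and -0.44 under TNF (adjusted p = 0.144 and 0.00116). TNF alone gave 99.3, 105, 63.5 and 59.0 CPM in si-control and 77.5, 94.6, 45.1 and 45.5 CPM in si-dnmt. The response to TNF in si-control was 0.66 ± 0.35 (adjusted p = 0.155) and 0.73 with the block (adjusted p = 1.2e-05), with 0.49 and 1.02 within the replicate sets. IFN alone gave 35.6 to 77.7 CPM in si-control and 48.3 to 67.7 CPM in si-dnmt. Ordered by mean, Adm was highest in si-control + TNF + IFN (146 ± 46.6 CPM, SD, n = 4) and lowest in si-control with no cytokine (51.8 ± 25.01), and the libraries of every pair of neighbouring groups overlapped.

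**Figure D3:**
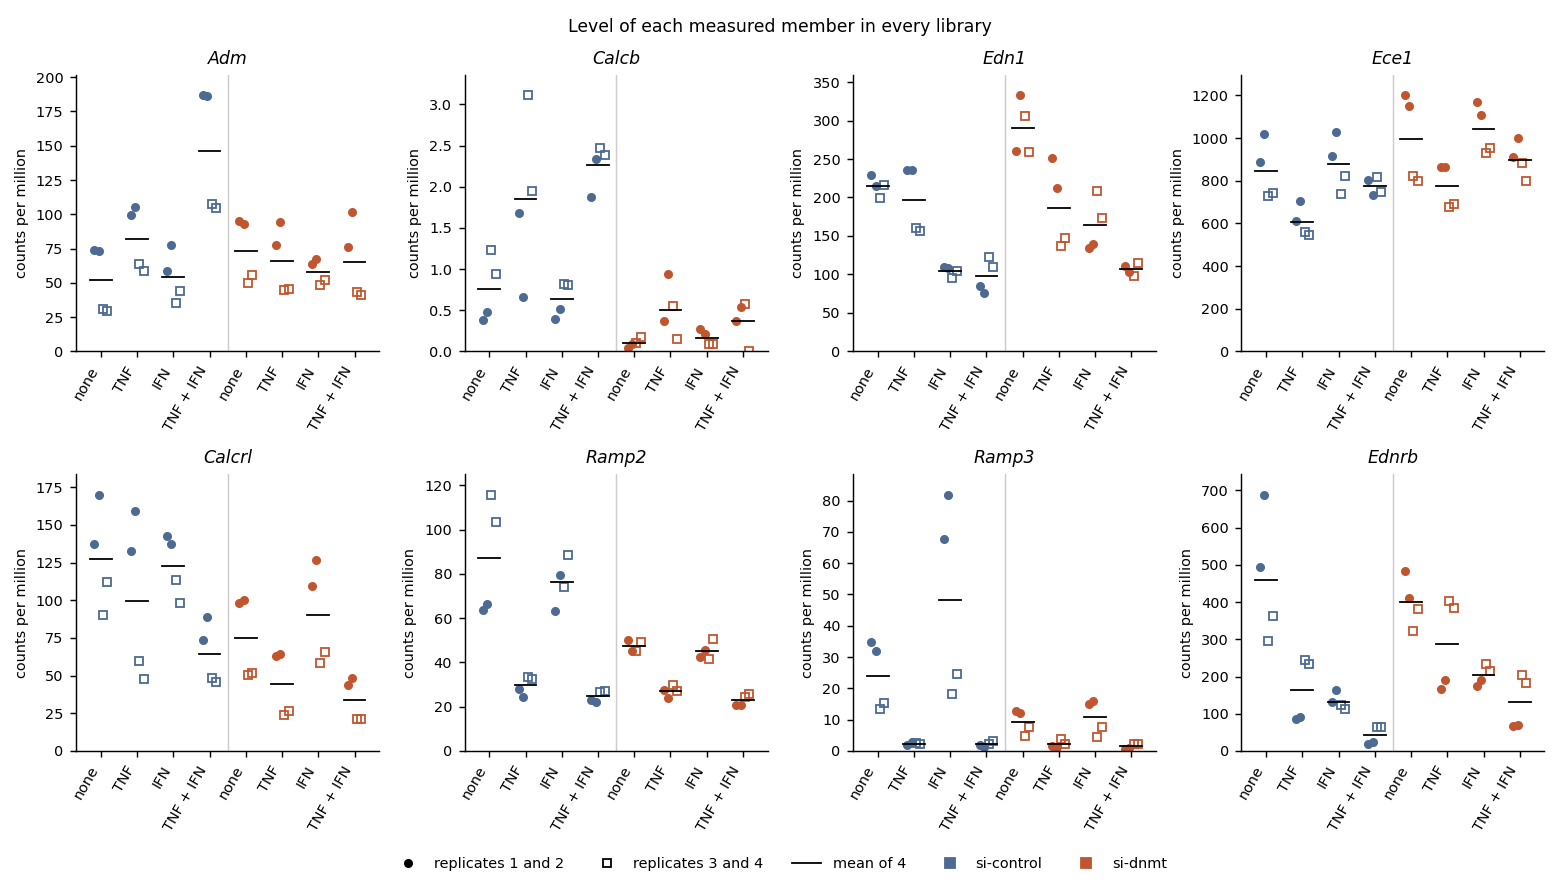
CPM of the 8 measured genes (vertical axis from 0, a scale for each gene) in the 8 groups, with 1 point per library, circles for replicates 1 and 2, squares for replicates 3 and 4 and a bar for the mean of 4. The 4 si-control + TNF + IFN libraries of Adm (105 to 187 CPM) lie above the 4 untreated si-control libraries, and Ramp3 lies at 3.83 CPM or below in every library given TNF.

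Calcb, which encodes beta-CGRP, was a low transcript in these cells and was lower in si-dnmt in every state. In si-control it had 8, 9, 28 and 21 counts (0.375, 0.477, 1.23 and 0.942 CPM), and in si-dnmt 1, 2, 3 and 5 counts (0.0445, 0.0855, 0.102 and 0.174 CPM). All si-dnmt libraries were below all si-control libraries, a difference of -2.80 ± 0.65 on the log2 scale (6.95-fold, adjusted p = 0.00267). Under TNF + IFN, the state whose fold change chose the gene, the level was 1.87, 2.34, 2.47 and 2.38 CPM in si-control and 0.369, 0.54, 0.578 and 0 CPM in si-dnmt. This is a log2 difference of -2.62 ± 0.56, given with no test, and a library at 0 counts allows up to 3 counts. Under TNF the difference was -1.86 ± 0.52 (adjusted p = 0.0119) and under IFN -1.97 ± 0.64 (adjusted p = 0.0276). The TNF call was lost without replicate 3 of si-control + TNF or replicate 4 of si-dnmt + TNF (-1.57 to -1.49). The IFN call was lost without replicate 3 or 4 of either group (-1.83 to -1.71). Within replicates 1 and 2 these 2 differences were -0.85 and -0.93, and within replicates 3 and 4 -2.79 and -3.12. Under the single cytokines the fall was thus larger in replicates 3 and 4.

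The mean of Calcb was also higher with the treatments that contained TNF, although not every rise was called. In si-control it went to 1.68, 0.656, 3.11 and 1.95 CPM with TNF, and the difference from no cytokine was 1.28 ± 0.50 (adjusted p = 0.0544), 1.28 with the block (adjusted p = 0.018). It was called without replicate 3 of si-control or replicate 2 of si-control + TNF (1.55 to 1.61). With TNF + IFN in si-control the rise was 1.56 ± 0.50 (2.96-fold, adjusted p = 0.0127), and all treated libraries were above all untreated ones. These treated libraries also entered the fold change that chose Calcb, so this test is not independent of the choice. In si-dnmt, TNF gave 8, 20, 12 and 3 counts, a rise of 2.21 ± 0.67 (adjusted p = 0.0181) that was lost without replicate 1 of si-dnmt or replicate 2 of si-dnmt + TNF (1.73 to 2.00). TNF + IFN in si-dnmt gave 1.74 ± 0.71 (adjusted p = 0.0515), 1.72 with the block (adjusted p = 0.0463) and 2.12 to 2.19 without replicate 4 of either group, where it was called. The si-dnmt + TNF + IFN libraries entered the fold change that chose Calcb as well, so this test is not independent of the choice either. Within replicates 1 and 2 and within replicates 3 and 4, the rises in si-control were 1.47 and 1.22 for TNF and 2.31 and 1.15 for TNF + IFN. In si-dnmt they were 3.20 and 1.36 for TNF and 2.70 and 0.94 for TNF + IFN. The edgeR fit of replicates 3 and 4 did not call these si-dnmt values (adjusted p = 0.27 and 0.435). IFN alone left it at 0.392 to 0.818 CPM in si-control and 0.0865 to 0.278 CPM in si-dnmt, and neither response was called (adjusted p = 0.832 and 0.786).

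Edn1, the endothelin-1 gene, fell with IFN under both siRNAs. In si-control its level was 229.8, 214, 199.6 and 216 CPM with no cytokine and 109.6, 108, 95.5 and 104 CPM with IFN. Every IFN library lay below every untreated one, with a log2 difference of -1.04 ± 0.18 (2.06-fold, adjusted p = 7.64e-05), and both replicate sets gave nearly the same size (-1.01 and -1.06). In si-dnmt it was 261, 333, 306 and 259 CPM with no cytokine and 134, 139, 209 and 173 CPM with IFN, a difference of -0.82 ± 0.18 (adjusted p = 0.00177). TNF + IFN gave -1.13 ± 0.18 (adjusted p = 6.13e-06) in si-control and gave -1.44 ± 0.18 (2.71-fold lower, adjusted p = 1.74e-07) in si-dnmt, where all 4 libraries were at 97.8 to 115 CPM. TNF alone gave -0.12 ± 0.17 in si-control (adjusted p = 0.641), with 0.10 in replicates 1 and 2 and -0.39 in replicates 3 and 4. In si-dnmt TNF gave -0.63 ± 0.18 (adjusted p = 0.0102), a call lost without replicate 3 of si-dnmt + TNF (-0.51).

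Between the siRNAs, Edn1 was higher in si-dnmt under IFN by 0.65 ± 0.18 on the log2 scale (1.57-fold, adjusted p = 0.00873), and all si-dnmt + IFN libraries were above all si-control + IFN libraries. Leaving out replicate 3 of si-dnmt + IFN ended this call (0.51), and the difference was 0.32 within replicates 1 and 2 and 0.93 within replicates 3 and 4. With no cytokine the 4 si-dnmt libraries were again all higher, by 0.43 ± 0.18, which edgeR did not call over all libraries (adjusted p = 0.0879, and 0.0537 with the block) but did with these 8 libraries alone (adjusted p = 0.0272) and within each replicate set (0.42 and 0.44, adjusted p = 0.00499 and 0.00124). Under TNF and TNF + IFN the differences were -0.08 ± 0.18 and 0.13 ± 0.18 (adjusted p = 0.81 and 0.691), and under TNF + IFN the replicate sets gave 0.42 and -0.12 (adjusted p = 0.00771 and 0.396). Edn1 was highest in si-dnmt (289.8 ± 36.2 CPM), apart from the next group, si-control (215 ± 12.4), and its 3 lowest groups were si-dnmt + TNF + IFN, si-control + IFN and si-control + TNF + IFN (107 ± 7.78, 104 ± 6.28 and 97.9 ± 21.7 CPM), which overlapped. An annotated antisense gene, Gm47118, shares exon bases with Edn1, and the strand setting of the counting is not given in the sources used here.

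Ece1, whose product converts the endothelin precursor to the active peptide, was the most abundant transcript of the list in CPM per kilobase of exon, with 159 ± 25.8 in si-control. It was 886, 1019, 728 and 742 CPM with no cytokine and 613, 704, 560.0 and 548 CPM with TNF in si-control. The TNF group lay wholly below, by a log2 difference of -0.48 ± 0.14 (1.39-fold, adjusted p = 0.00896). In si-dnmt TNF gave -0.36 ± 0.14 (adjusted p = 0.0605), -0.35 with the block (adjusted p = 0.00181) and -0.45 to -0.44 without replicate 3 or 4 of si-dnmt, where it was called. IFN and TNF + IFN moved it by at most 0.15 under either siRNA, and none of the 4 values was called (adjusted p = 0.433 to 0.871). Si-dnmt means were above si-control means in all 4 states, by 0.24, 0.35, 0.25 and 0.21 ± 0.14, with adjusted p of 0.254, 0.0723, 0.216 and 0.323. The value under TNF was called without replicate 2 of si-control + TNF (0.43). With the block, the first 3 were called (adjusted p = 0.0389, 0.00214 and 0.0226) and the last was not (adjusted p = 0.0752).

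Calcrl, the receptor that adrenomedullin and CGRP share, was lower with TNF + IFN under both siRNAs. In si-control it was 137, 170.1, 90.5 and 112 CPM with no cytokine and 73.4, 89.2, 48.3 and 45.8 CPM with TNF + IFN. In si-dnmt it was 98.0, 100.4, 50.3 and 51.4 CPM and 44.0, 48.7, 21.4 and 21.3 CPM in the same states. Treated libraries lay below all untreated ones under each siRNA, and replicates 1 and 2 were the higher pair throughout. The log2 differences were -0.99 ± 0.39 (adjusted p = 0.0381) and -1.15 ± 0.39 (adjusted p = 0.0201). Each call was lost when replicate 1 or 2 of the untreated group or replicate 3 or 4 of the treated group was left out (-0.95 to -0.82 in si-control and -0.99 to -0.98 in si-dnmt). Within the replicate sets the values were -0.90 and -1.11 in si-control and -1.09 and -1.25 in si-dnmt.

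Against si-control, Calcrl was lower in si-dnmt under TNF, at 62.9, 64.5, 23.9 and 26.6 CPM beside 133, 159, 59.5 and 47.5 CPM. The difference was -1.17 ± 0.39 (2.24-fold, adjusted p = 0.0337) although the groups overlapped, and it was lost without replicate 1 or 2 of si-control + TNF or replicate 3 or 4 of si-dnmt + TNF (-0.997 to -0.848). In the other states the differences were -0.77 ± 0.39 (none), -0.45 ± 0.38 (IFN) and -0.92 ± 0.39 (TNF + IFN), with adjusted p of 0.179, 0.453 and 0.105. When libraries of the same number were compared by the block, the receptor was called lower in si-dnmt in all 4 states, by log2 differences of -0.82, -1.14, -0.53 and -0.97 for none, TNF, IFN and TNF + IFN, with edgeR adjusted p of 6.96e-05, 8.22e-07, 0.0052 and 1.44e-05 in turn. The block also called Calcrl lower with TNF alone in si-control (-0.48, adjusted p = 0.00842) and in si-dnmt (-0.81, adjusted p = 9.24e-05), which the fit without it did not (-0.35 ± 0.38 and -0.75 ± 0.39, adjusted p = 0.529 and 0.18). In si-control that TNF response was -0.06 within replicates 1 and 2 and -0.92 within replicates 3 and 4.

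Ramp2, the partner that makes the Calcrl receptor bind adrenomedullin, was lower with TNF under either siRNA and, where TNF was absent, lower in si-dnmt. In si-control it was 63.7, 66.3, 116 and 103 CPM with no cytokine, 28.2, 24.6, 33.3 and 32.6 CPM with TNF and 23.1, 22.1, 26.6 and 27.1 CPM with TNF + IFN. In si-dnmt the same states gave 50.3, 45.3, 45.1 and 49.3 CPM, then 27.5, 23.9, 29.98 and 27.3 CPM, then 20.7, 20.99, 24.5 and 25.9 CPM. The groups with TNF thus ended at a common level of 20.7 to 33.3 CPM whichever siRNA was given. The log2 differences from no cytokine were -1.56 ± 0.15 for TNF (2.94-fold, adjusted p = 5.93e-09) and -1.82 ± 0.15 for TNF + IFN (adjusted p = 7.53e-11) in si-control, and -0.81 ± 0.15 (adjusted p = 0.000209) and -1.05 ± 0.15 (adjusted p = 1.74e-06) in si-dnmt. Between the siRNAs the difference was -0.88 ± 0.15 with no cytokine (1.84-fold, adjusted p = 9.6e-05) and -0.76 ± 0.15 under IFN (adjusted p = 0.000433), and in both states no si-dnmt library reached the lowest si-control library. With no cytokine it was -0.44 within replicates 1 and 2 and -1.21 within replicates 3 and 4. Under TNF and TNF + IFN it was -0.13 ± 0.15 and -0.10 ± 0.15 (adjusted p = 0.602 and 0.703). IFN alone gave 63.3 to 88.7 CPM in si-control and 41.6 to 50.4 CPM in si-dnmt, with neither response called (adjusted p = 0.458 and 0.86). Ramp2 shares annotated exon bases with the protein-coding gene Vps25 on the same strand, so part of its reads may have been counted elsewhere or left out.

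Ramp3, the other adrenomedullin partner, showed the widest range of the list, with 4.88 on the log2 scale between its highest and lowest group mean. Its highest group was si-control + IFN, whose libraries entered the fold change that chose the gene, so this rank is not independent of the choice. In si-control it was 34.8, 31.97, 13.5 and 15.3 CPM with no cytokine and 1.85, 2.72, 2.47 and 2.23 CPM with TNF. In si-dnmt it was 12.8, 12.1, 4.91 and 7.72 CPM with no cytokine and 1.65, 1.22, 3.83 and 2.26 CPM with TNF. All 16 libraries with TNF, alone or with IFN, lay at 0.554 to 3.83 CPM, and all 16 without it at 4.60 to 81.9 CPM. The differences for TNF were -3.36 ± 0.51 in si-control (10.3-fold, adjusted p = 1.08e-05) and -2.06 ± 0.50 in si-dnmt (4.16-fold, adjusted p = 0.00381), and for TNF + IFN -3.48 ± 0.52 (11.2-fold, adjusted p = 3.09e-06) and -2.64 ± 0.53 (6.24-fold, adjusted p = 0.000198). Within replicates 1 and 2 these 4 falls were -3.86, -3.10, -4.41 and -4.13, and within replicates 3 and 4 they were -2.61, -1.04, -2.39 and -1.49.

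With no cytokine Ramp3 was lower in si-dnmt than in every si-control library, by a log2 difference of -1.35 ± 0.46 (2.55-fold, adjusted p = 0.0392). The call was lost without replicate 1 or 2 of si-control or replicate 3 or 4 of si-dnmt (-1.27 to -1.11). Under IFN, the state in which the gene was selected on its fold change, si-control had 67.7, 81.9, 18.2 and 24.5 CPM and si-dnmt 15.1, 16.1, 4.60 and 7.82 CPM, a difference of -2.15 ± 0.47 given with no test. Under TNF and TNF + IFN it was -0.05 ± 0.53 and -0.51 ± 0.57 (adjusted p = 0.968 and 0.6). The response to IFN in si-control was 1.01 ± 0.45 (adjusted p = 0.148, and 0.0547 with the block), with 1.19 within replicates 1 and 2 and 0.57 within replicates 3 and 4, and in si-dnmt it was 0.22 ± 0.46 (adjusted p = 0.874). The IFN libraries of both siRNAs also entered the fold change that chose Ramp3, so these tests are not independent of the choice. A pseudogene on the opposite strand, Gm11978, shares exon bases with Ramp3.

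Ramp1, the partner that makes the receptor bind CGRP, had 36 counts over all 32 libraries, with 0 counts in 13 of them and at most 6 in any. A count of 0 allows up to 3 counts, which is 0.0896 to 0.173 CPM at these depths, so Ramp1 was at or near the floor in every group and was not tested. In CPM per kilobase, given for scale only because the build behind the counts is not known, si-control with no cytokine had 26.1 for Calcrl, 26.4 for Ramp2, 17.3 for Ramp3 and 0.0113 for Ramp1. The Ramp2 values here, and the ratios to them, carry the doubt from its exon overlap with Vps25. In si-control + TNF + IFN the means were 13.1 for Calcrl, 7.49 for Ramp2 and 1.55 for Ramp3. The ratio of Ramp2 to Ramp3 per kilobase was 0.765 to 3.58 in the untreated si-control libraries and 3.78 to 6.39 with TNF in si-control, which do not overlap, and 1.57 to 3.84 and 3.27 to 8.18 in si-dnmt, which do.

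Ednrb, the endothelin receptor of ECs, fell with each cytokine treatment in si-control and was higher in si-dnmt than in si-control when both cytokines were given. In si-control it was 494, 688, 295 and 362 CPM with no cytokine, 85.6, 91.7, 244 and 232 CPM with TNF, 131, 163, 122 and 114 CPM with IFN and 18.5, 23.0, 64.6 and 64.3 CPM with TNF + IFN. Each cytokine group lay below all untreated libraries, and the combined group below all libraries of the other 3. The log2 differences were -1.49 ± 0.42 for TNF (2.82-fold, adjusted p = 0.00707), -1.79 ± 0.42 for IFN (3.47-fold, adjusted p = 0.00327) and -3.43 ± 0.45 for TNF + IFN (10.8-fold, adjusted p = 3.86e-07). In replicates 1 and 2 they were -2.72, -1.98 and -4.82, and in replicates 3 and 4 -0.47, -1.48 and -2.35. The fall with TNF thus had 1 direction in both sets and a far greater size in the first.

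In si-dnmt Ednrb was 484, 411, 322 and 382 CPM with no cytokine, 166, 191, 403 and 384 CPM with TNF, 173, 189, 235 and 215 CPM with IFN and 67.3, 70.1, 205 and 182 CPM with TNF + IFN. The combination again gave the lowest mean, and its 4 libraries lay below the 4 untreated ones, with a log2 difference of -1.61 ± 0.42 (3.05-fold, adjusted p = 0.00281). IFN gave -0.98 ± 0.41 (adjusted p = 0.165), which the block called (-1.05, adjusted p = 0.0358). TNF gave -0.48 ± 0.41 (adjusted p = 0.458), being -1.32 within replicates 1 and 2 and 0.16 within replicates 3 and 4, so the direction itself turned between the sets. Between the siRNAs, all 4 si-dnmt + TNF + IFN libraries were above all 4 si-control + TNF + IFN libraries, by 1.62 ± 0.42 on the log2 scale (3.08-fold, adjusted p = 0.00729). The 2 replicate sets gave 1.73 and 1.59, and the call held without each library in turn (1.33 to 1.90). A fit of these 8 libraries alone did not call it (adjusted p = 0.0589). With no cytokine, TNF and IFN the differences were -0.20 ± 0.41, 0.81 ± 0.41 and 0.61 ± 0.41 (adjusted p = 0.786, 0.179 and 0.317). Within replicates 1 and 2 and within replicates 3 and 4 the TNF value was 1.01 and 0.73 (adjusted p = 7.65e-06 and 3.22e-06) and the IFN value 0.29 and 0.93 (adjusted p = 0.12 and 1.35e-07). Ednra, the receptor of smooth muscle, had 0 counts in 31 of 32 libraries and 4 counts in replicate 4 of si-dnmt + TNF + IFN, and it was not tested.

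**Figure D4:**
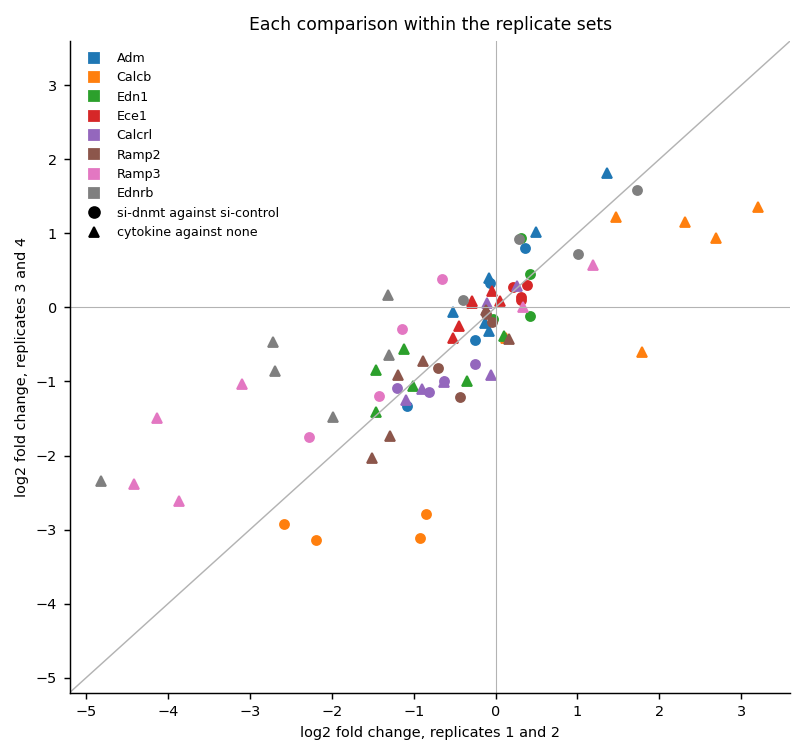
Log2 fold change within replicates 1 and 2 (horizontal axis) against that within replicates 3 and 4 (vertical axis) for the 8 genes in the 4 siRNA comparisons and 6 cytokine comparisons, with equality as the diagonal. Leaving out the 2 values that chose genes, 64 of 78 points have the same sign in both sets, as do all 33 called values, and the Ednrb and Ramp3 points for TNF and TNF + IFN lie to the left of the diagonal, with a greater fall in replicates 1 and 2. The calls came from the fit of both sets together, which favours a shared sign, and the points share libraries.

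Whether the response to a cytokine differed between the siRNAs was tested as an interaction. The edgeR fit called 0 of the 8 genes for TNF, IFN and TNF + IFN, against 0.0328%, 0.0459% and 0.531% of all genes tested. At an unadjusted p under 0.05 there were 2 (Ramp2 and Edn1), 0 and 3 (Adm, Ramp2 and Ednrb). No share of all genes was taken at that threshold, so nothing is read from these counts. DESeq2 called 0, 0 and 2 of the 8, against 53 of 13183, 32 of 15254 and 205 of 12888 genes for which it gave an adjusted p. The fit with the replicate block called 2, 0 and 3, where it called 0.892% of all genes for TNF and 4.18% for TNF + IFN. For Adm the response to TNF + IFN was lower in si-dnmt by a log2 difference of -1.67 ± 0.49 (adjusted p = 0.14, and 2.3e-07 with the block at -1.76), with -1.44 and -2.14 in the replicate sets. For Ednrb it was less negative in si-dnmt by 1.83 ± 0.59 (adjusted p = 0.198, and 0.0305 with the block at 1.86), with 2.12 and 1.49 in the sets. For Ramp2 it was less negative by 0.77 ± 0.21 (adjusted p = 0.0885, and 0.00751 with the block at 0.74), with 0.32 and 1.12 in the sets, and leaving out replicate 1 or 2 of si-control alone brought it past the threshold (0.89 to 0.90). For TNF alone the block called Adm (-0.90, adjusted p = 0.00775) and Ramp2 (0.73, adjusted p = 0.0278), where the fit without it gave -0.82 ± 0.49 and 0.75 ± 0.21 (adjusted p = 0.849 and 0.26). Neither the fit over all libraries nor the blocked fit called an interaction for Calcb, Calcrl, Ramp3, Edn1 or Ece1. Fits of 1 replicate set called Edn1 for TNF (-0.60, adjusted p = 0.0107) and TNF + IFN (-0.56, adjusted p = 0.0129) and Ramp3 for TNF (1.58, adjusted p = 0.0136) in replicates 3 and 4, and Ramp3 for IFN (-0.85, adjusted p = 0.0205) in replicates 1 and 2. The interaction of Ramp3 for IFN contains the siRNA difference that chose Ramp3, and that of Calcb for TNF + IFN the difference that chose Calcb. Those tests are therefore not independent of the choice, and nothing is read from them.

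Whether TNF and IFN added up on the log2 scale was tested under each siRNA. No gene of the list was called in si-control or si-dnmt by edgeR (1.06% and 0.354% of all genes), and none had an unadjusted p below 0.05. DESeq2 made 0 calls in the list, against 293 of 13183 genes in si-control and 96 of 15254 in si-dnmt. With the block, Adm was called in si-control (4.23% of all genes), where its level with both cytokines exceeded the sum of the single log2 responses by 0.71 (adjusted p = 0.0113), against 0.78 ± 0.49 without it (adjusted p = 0.681). The value was 0.95 within replicates 1 and 2 and 0.39 within replicates 3 and 4. For Edn1 the departure in si-control was 0.03 ± 0.25 over all libraries, -0.55 within replicates 1 and 2 and 0.60 within replicates 3 and 4, called in opposite directions (adjusted p = 0.0226 and 0.0161). Ednrb departed from the sum by -0.15 ± 0.58 in each siRNA (adjusted p = 0.989 and 1).

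The ligand and receptor of each system can be set beside each other in 1 library through their levels per kilobase. The ratio of Adm to Calcrl was 0.792 to 1.62 in si-control and 6.31 to 7.69 in si-control + TNF + IFN. In si-dnmt it was 2.79 to 3.26 with no cytokine and 5.20 to 6.28 with TNF + IFN. The groups named do not overlap under either siRNA. The ratio of Edn1 to Ednrb was 0.621 to 1.35 in si-control, 1.32 to 5.50 with TNF, 1.32 to 1.83 with IFN and 3.39 to 9.16 with TNF + IFN. In si-dnmt it was 1.07 to 1.90, 0.680 to 3.02, 1.47 to 1.77 and 0.951 to 3.29 in the same order, so the highest si-dnmt + TNF + IFN library lay just under the lowest si-control + TNF + IFN library.

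**Figure D5:**
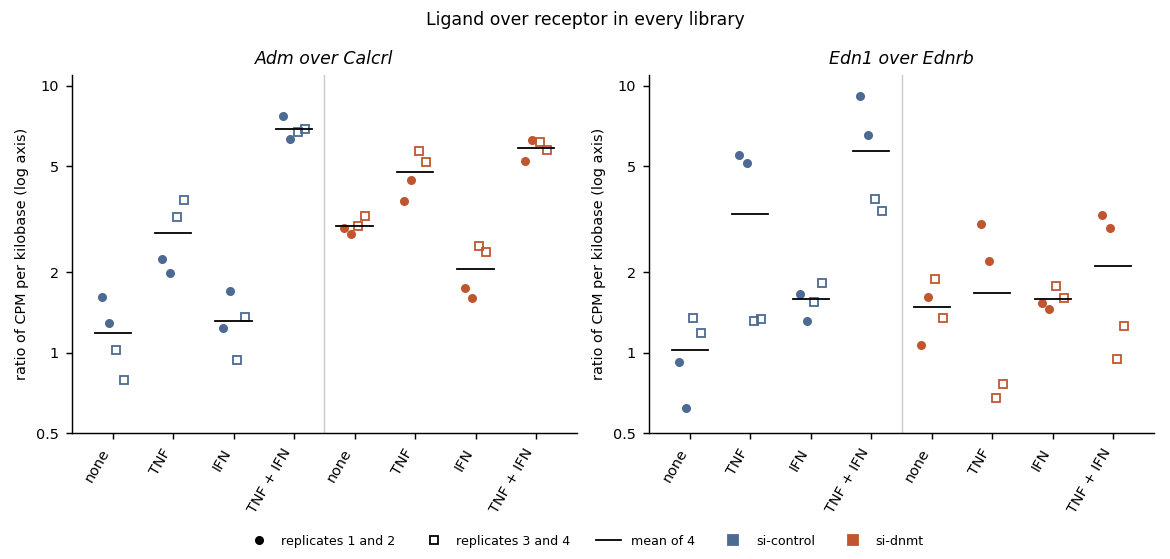
Ratio of Adm to Calcrl (left) and of Edn1 to Ednrb (right), each from CPM per kilobase of exon (vertical log axis), in every library of the 8 groups, with circles for replicates 1 and 2, squares for replicates 3 and 4 and a bar for the mean of 4. The Adm to Calcrl ratio stands at 6.31 to 7.69 in si-control + TNF + IFN and at 0.792 to 1.62 in untreated si-control, while the Edn1 to Ednrb ratio spreads widely between the replicate sets wherever TNF was given.

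Of 15 further genes of the peptide systems (other ligands, processing and degrading enzymes, decoy receptors), 6 passed the filter. Between the siRNAs, Cpe, a carboxypeptidase that trims peptide hormones, was the gene called in more than 1 state, lower by -0.47 ± 0.15 with no cytokine (adjusted p = 0.0227) and -0.51 ± 0.15 under IFN (adjusted p = 0.0137). The first call was lost without replicate 1 or 2 of si-control or replicate 3 or 4 of si-dnmt (-0.40 to -0.36) and with these 8 libraries alone (adjusted p = 0.157), and the second without replicate 3 or 4 of si-dnmt + IFN (-0.45 to -0.44). With TNF 4 of 6 were called lower under each siRNA (14.6% of all genes in si-control and 9.54% in si-dnmt), and with IFN 1 of 6 under each (5.92% and 2.35%). With TNF + IFN 3 were lower and 1 higher in si-control (21.6% and 23.5% of all genes), and 5 lower in si-dnmt (18.9%). Pam, which amidates adrenomedullin, CGRP and other peptides, changed in si-control by -0.67 ± 0.13 for TNF and by -1.28 ± 0.13 for the combination, with edgeR adjusted p of 0.000249 and 4.46e-09. Of 24 genes that couple such receptors to cyclic AMP and calcium, 21 passed the filter, and 3 were called lower with si-dnmt in each state, with 1 higher under IFN. Of all genes, 8.72% to 9.59% were called lower in these states and 10.8% higher under IFN. Without 1 library at a time 0 to 3, 1 to 3, 1 to 3 and 3 to 4 were called lower, with no share of all genes taken. With the libraries of each comparison alone 1, 0, 2 and 3 were called lower. Those fits called 1975, 2256, 2324 and 2178 of all 15254 genes in either direction. Nothing is read from these counts. Plcb1, a phospholipase C, was lower under TNF, IFN and TNF + IFN (-0.49 ± 0.18, -0.81 ± 0.17 and -1.19 ± 0.18, adjusted p = 0.0461, 0.000878 and 2.13e-05). Adcy4, an adenylyl cyclase, was lower under TNF and TNF + IFN (-0.31 ± 0.09 and -0.58 ± 0.09, adjusted p = 0.0165 and 4.8e-05). Arrb1, a beta-arrestin, was lower with no cytokine, under IFN and under TNF + IFN (-0.32 ± 0.11, -0.32 ± 0.11 and -0.42 ± 0.11, adjusted p = 0.0339, 0.0341 and 0.00549). Every one of these calls but those of Plcb1 under IFN and all 3 under TNF + IFN was lost without at least 1 of several single libraries (Plcb1 under TNF -0.51 to -0.33, Adcy4 under TNF -0.28 to -0.25, Arrb1 -0.33 to -0.24 with no cytokine and -0.32 to -0.26 under IFN). The medians of the coupling genes lay between -0.14 and 0.00 in the siRNA comparisons.

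Adm is also a known target of hypoxia-inducible factors, so 14 genes of the hypoxia response were counted in the same comparisons. They include Hif1a and Epas1, which encode such factors themselves. With TNF + IFN in si-control 8 of 14 were called higher and 2 lower (23.5% and 21.6% of all genes; median 0.78 against -0.01 for all genes), and with si-dnmt under TNF + IFN 0 were higher and 10 lower (8.97% and 8.72% of all genes; median -0.78 against 0.00). Vegfa was 2.94 ± 0.39 higher with TNF + IFN in si-control (adjusted p = 3.58e-07) and differed by -1.54 ± 0.36 between si-dnmt and si-control under TNF + IFN (adjusted p = 0.00318). Ero1l followed the same pattern with 2.12 ± 0.15 and -1.25 ± 0.15 (adjusted p = 4.22e-12 and 1.04e-06). Ndrg1 was lower in both comparisons (-0.88 ± 0.27 and -1.64 ± 0.28), and Epas1 fell by 2.40 ± 0.19 with TNF + IFN (adjusted p = 3.38e-11). Leaving out 1 library at a time left 6 to 10 genes called lower with si-dnmt and 8 or 9 called higher with TNF + IFN. Calls were also made where Adm was not called. With TNF + IFN in si-dnmt 4 were higher and 2 lower (21.3% and 18.9% of all genes). With TNF in si-control 4 were higher and 2 lower (16.1% and 14.6% of all genes). Between the siRNAs, 4 were lower in si-dnmt under TNF (9.59% of all genes) and 3 lower under IFN (9.54%). With no cytokine 1 was higher and 2 lower in si-dnmt (9.58% and 8.88% of all genes). The part of these genes in the values of Adm was not tested.

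Over the 8 group means of log2 CPM, the genes most like each of the 4 genes of widest range were found among 12562 genes with a mean of at least 1 CPM, as a description of 8 points that share libraries. The ranges of Ramp3 and Calcb include groups that entered the values that chose them. Ramp3 was followed most closely by Ggcx, Itgb4 and Cd151 (Pearson r = 0.994, 0.994 and 0.993), of which Itgb4 had a comparable range (4.33 against 4.88) and Ggcx a far smaller one (0.50). Ednrb was followed by Ankrd9, Pomgnt2 and Col4a5 (r = 0.995, 0.988 and 0.984, ranges of 1.31, 1.87 and 2.06 against 3.58). Calcrl was followed by Rcbtb2, Kcnd3 and Nr2f2 (r = 0.988, 0.98 and 0.979), and Calcb by Mutyh, Hsp90ab1 and Dhdds (r = 0.985, 0.982 and 0.981).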

How the data were processed

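RNA-seq libraries of 8 groups with 4 biological replicates each were analysed, grouped by the titles and treatment labels. The authors deposited whole-number read counts per gene for each library, and a merged table of the same counts that differed from them in 0 cells. Per the labels, the submitters' processing notes name cutadapt 4.9, FastQC 0.12.1, MultiQC 1.27.1, featureCounts and DESeq2. For the aligner, genome build, annotation and strand setting, no name is given in the sources used here.

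The counts were fitted with edgeR 4.0.16 in R 4.3.3, with limma 3.58.1 loaded, using 1 quasi-likelihood model of 8 group means over all 32 libraries, TMM factors (0.880 to 1.09), a prior count of 2 and the filterByExpr filter at a minimum count of 10. The filter kept 15254 genes, which held at least 99.9% of the counts of each library, and p-values were adjusted by Benjamini-Hochberg over all of them and called under 0.05. Interactions were contrasts of the same model. The procedure was tested on simulated counts drawn with no difference between the replicate sets. That test therefore does not cover the split between replicates 1 and 2 and replicates 3 and 4. Total counts were 17362546 to 33500030 per library, and a floor of 3 counts covers counting error only. Lengths per kilobase are unions of GENCODE M21 exons, in bases: the build of the files is not given, so they serve for scale only.

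The replicate numbers were taken to pair libraries, since the deviations from the group means of all 112 pairs with the same number in different groups correlated at 0.297 or more (median 0.415). Libraries of the other number in the same set did nearly as well (median 0.409) and those of the other set correlated negatively (median -0.410), so the numbers mainly separate replicates 1 and 2 from 3 and 4, and 24 of 32 libraries correlated best with their own number. The fit with the replicate number as a block was an alternative, as were DESeq2 1.42.0, RLE factors, no filter, either replicate set alone, the libraries of each contrast alone, and leaving out each library in turn. The genes and lists were chosen with earlier results of these data known. The text names all 10 genes, Dnmt1, up to 3 genes each of the partner and coupling lists with the largest fold among those called with the siRNA in 2 or more states in 1 direction, and for the 4 genes of widest range the 3 most correlated others. Pam, Vegfa, Ero1l, Ndrg1 and Epas1, and the marker genes singled out, were named after their values were seen. Promoter sequences are from RefSeq (GRCm38.p6).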

Additional observations from a re-analysis of the deposited data

Results flagged for a closer look

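In the fit with the replicate number as a block, the response to a cytokine differed between si-dnmt and si-control for 3 genes. The response of Adm was lower in si-dnmt, by a log2 difference of -0.90 for TNF and -1.76 for TNF + IFN. That of Ramp2 was less negative, by 0.73 for TNF and 0.74 for TNF + IFN, and that of Ednrb was less negative by 1.86 for TNF + IFN. In si-control, the response of Adm to TNF also differed by 0.71 according to whether IFN was present. None of these 6 values was called by the edgeR fit without the block.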

How the results depend on the processing

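The calls among the 8 genes were 12 between the siRNAs, 13 for cytokines in si-control, 10 for cytokines in si-dnmt, 0 for siRNA by cytokine and 0 for TNF by IFN, summed over contrasts, the first including the 2 values that chose genes. With the replicate block they were 20 between the siRNAs, 5 for siRNA by cytokine and 1 for TNF by IFN. With replicates 1 and 2 only they were 21 between the siRNAs, 17 for cytokines in si-dnmt, 4 for siRNA by cytokine and 6 for TNF by IFN, and with replicates 3 and 4 only 23, 10 and 2 for the first, the fourth and the last family. With replicates 1 and 2 only, 19.5% to 47.6% of all genes were called for cytokines in si-dnmt. The shares were 1.8% to 4.95% for siRNA by cytokine and 4.84% to 10.8% for TNF by IFN. With replicates 3 and 4 only, the shares of the interaction families were 0.99% to 11.8% and 2.08% to 4.34%. DESeq2 gave 2 for siRNA by cytokine, both for TNF + IFN, where it called 205 of 12888 genes. Leaving out 1 library at a time gave 10 to 12, 12 to 14, 8 to 12, 0 to 1 and 0 to 0 calls, and a mean Dnmt1 log2 fold change of -4.00 to -3.86. Of 120 single values, the block brought 21 past the threshold and took 0 below it, and it changed no other call. With the libraries of each contrast alone, 4 calls were lost (Ramp3 with no cytokine, Calcb and Calcrl under TNF, Ednrb under TNF + IFN, all between the siRNAs) and 3 gained. The departure of Edn1 from additivity in si-control was 0.03 and turned to -0.55 with replicates 1 and 2 only, against 0.60 with replicates 3 and 4 only. RLE factors and no filter changed no call of the 120. Over all genes, the siRNA calls with no cytokine, under TNF, IFN and TNF + IFN were 2816, 3050, 3103 and 2699, with the block 4941, 5097, 5258 and 4694, with replicates 1 and 2 only 3679, 4025, 3890 and 3647, and with replicates 3 and 4 only 5526, 5499, 5829 and 5478, so calls rose over all genes as well. The cause of these changes was not tested. Calcb, Ramp1 and Ednra had few counts, and no difference could be tested for the last 2.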
